A study of Mus musculus with 18 samples.

Results

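The CCN genes encode secreted matricellular proteins, which sit in the extracellular matrix and act on cells without building it. The 5 family members followed here, Wisp1, Ctgf, Cyr61, Nov and Wisp2, were taken by symbol from 34591 gene symbols counted in 18 poly(A) RNA libraries of 4T1, a mouse mammary tumour cell line. Their current symbols are Ccn4, Ccn2, Ccn1, Ccn3 and Ccn5, in that order, and all 5 passed the filter on low counts in all 7 comparisons. The sixth mammalian gene, Wisp3 (Ccn6), had a count of 0 in 17 of 18 libraries and 1 count in the other, where 3 counts would be 0.0322 to 0.082 CPM (counts scaled to library size), and it was not tested.

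There were 6 groups with 3 libraries each. Parental cells were given RPMI with 2 ng/mL recombinant human TGFb1 for 24 h, or fresh RPMI alone for 24 h (untreated). A stable line carrying Wisp1 and a stable line carrying an empty lentiviral vector (EV), both selected with puromycin, were each grown on dishes coated with collagen type I and on tissue-culture plastic, and harvested before confluence. All cells were grown in RPMI with 10% serum. Each vector is represented by 1 stable line, so replicates are cultures of a line rather than separate transductions. The labels do not say that the cultures were independent, and p-values measure the spread between these libraries. Wisp1 counts in the Wisp1 line include transcripts of the vector, whose length is not given in the sources used here.

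A full-length CCN protein has an insulin-like growth factor binding (IGFBP) module, a von Willebrand type C module, a thrombospondin type I module and a cysteine-knot module at its end. Wisp2 lacks the last one. The proteins bind integrins, heparan sulphate proteoglycans, lipoprotein receptor-related proteins and growth factors. Ctgf and Cyr61 are textbook targets of the coactivators YAP and TAZ with TEAD factors, Ctgf is also a target of TGF-beta signalling through SMAD proteins, and Wisp1 and Wisp2 were first described as genes induced by Wnt1 in mouse mammary epithelial cells. Nov is known in several cell types to oppose effects of Ctgf.

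The 24 coding bases of the cysteine-rich signature in the IGFBP module are shown because the module is common to the family. Capitals mark the 13 bases that are the same in all 5 (GENCODE transcripts of build GRCm38). The stretches were found by searching for glycine and cysteine codons at set places, so part of the shared bases was fixed in advance. The counts of shared bases are therefore no measure of kinship.
Wisp1: GGCTGtgaaTGCTGtaagaTaTGt
Ctgf: GGCTGcggcTGCTGccgcgTcTGc
Cyr61: GGCTGcggcTGCTGtaaggTcTGc
Nov: GGCTGctccTGCTGtccggTgTGc
Wisp2: GGCTGtggcTGCTGtcgagTgTGt
Ctgf and Cyr61 shared 20 of these 24 bases, the most of any pair, and Wisp1 and Ctgf shared 14, the fewest. The coding sequences held 367 codons in Wisp1, 348 in Ctgf, 379 in Cyr61, 354 in Nov and 251 in Wisp2. Wisp2 had 29 cysteine codons, and the other 4 genes had 38 to 40.

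A promoter was at hand for 1 of the 5 members, Cyr61, and it is shown because Cyr61 is a textbook target of YAP and TAZ with TEAD factors. The 250 bases before its RefSeq start are chr3:145649986-145650235 of GRCm38.p6, on the minus strand, with a TEAD motif and a TATA box in capitals.
Cyr61: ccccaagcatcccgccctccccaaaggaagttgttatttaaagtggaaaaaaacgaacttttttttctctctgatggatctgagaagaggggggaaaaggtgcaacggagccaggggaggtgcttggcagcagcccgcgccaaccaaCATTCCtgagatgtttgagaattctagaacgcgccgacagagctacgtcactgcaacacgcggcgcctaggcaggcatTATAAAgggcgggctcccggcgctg
The TEAD letters GGAATG lay on the opposite strand, 103 to 98 bases before the start, and TATAAA lay 25 to 20 bases before it. Searched on both strands with no overlap between the motifs found, GGAATG was present in 12.6% of 32851 promoter windows and TATAAA in 12.4%. The window held no CAGAC (SMAD, in 42.2% of windows), no TGANTCA (AP-1, in 6.75%) and no CTTTGAT (TCF and LEF, in 3.21%). These matches describe letters in the window and no binding was measured.

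Gene counts per library ran from 37552858 to 94401699. The mammary epithelial markers (Epcam, Cdh1, Krt8, Krt18, Krt7 and Krt14) summed to between 3240 and 5810 CPM in every library. The 7 fibroblast markers summed to 16.4 to 71.3 CPM, most of it Pdgfra, and Thy1 was at 0 throughout. The 4 endothelial markers summed to at most 0.476 CPM. The 4 leukocyte markers summed to 0.694 to 15.4 CPM, and Cd3e was at 0 throughout. The sample codes of collagen and plastic libraries belong to different runs of numbers, and whether these mark a batch is not stated, so that substrate and such a batch cannot be told apart. The same holds for parental cells against stable lines.

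The 5 genes covered a wide range of levels, and their order of groups differed. Wisp1 was highest in the Wisp1 line, followed by TGFb1-treated parental cells, and these 2 sets of libraries did not overlap with each other or with the rest. Outside the Wisp1 line its lowest level was in EV cells on collagen, 15.3 ± 1.1 CPM (SD, n = 3), where the range overlapped that of untreated parental cells. Ctgf was highest with TGFb1, at 700 ± 360 CPM, and lowest on collagen, where both lines averaged 43.6 CPM. Cyr61 had the narrowest range of the family, with 4.17-fold between the highest group mean (TGFb1, 359 ± 77 CPM) and the lowest (the Wisp1 line on collagen, 86.1 ± 18 CPM), and every neighbouring pair of groups in its order overlapped. Nov ran opposite to these genes, with its highest means on collagen (2.61 ± 0.81 CPM in the Wisp1 line and 2.34 ± 0.5 CPM in EV) and its lowest with TGFb1 (0.214 ± 0.076 CPM). Wisp2 was low throughout, at 0.156 to 1.66 CPM, and was higher in parental cells than in EV cells.

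**Figure D1:**
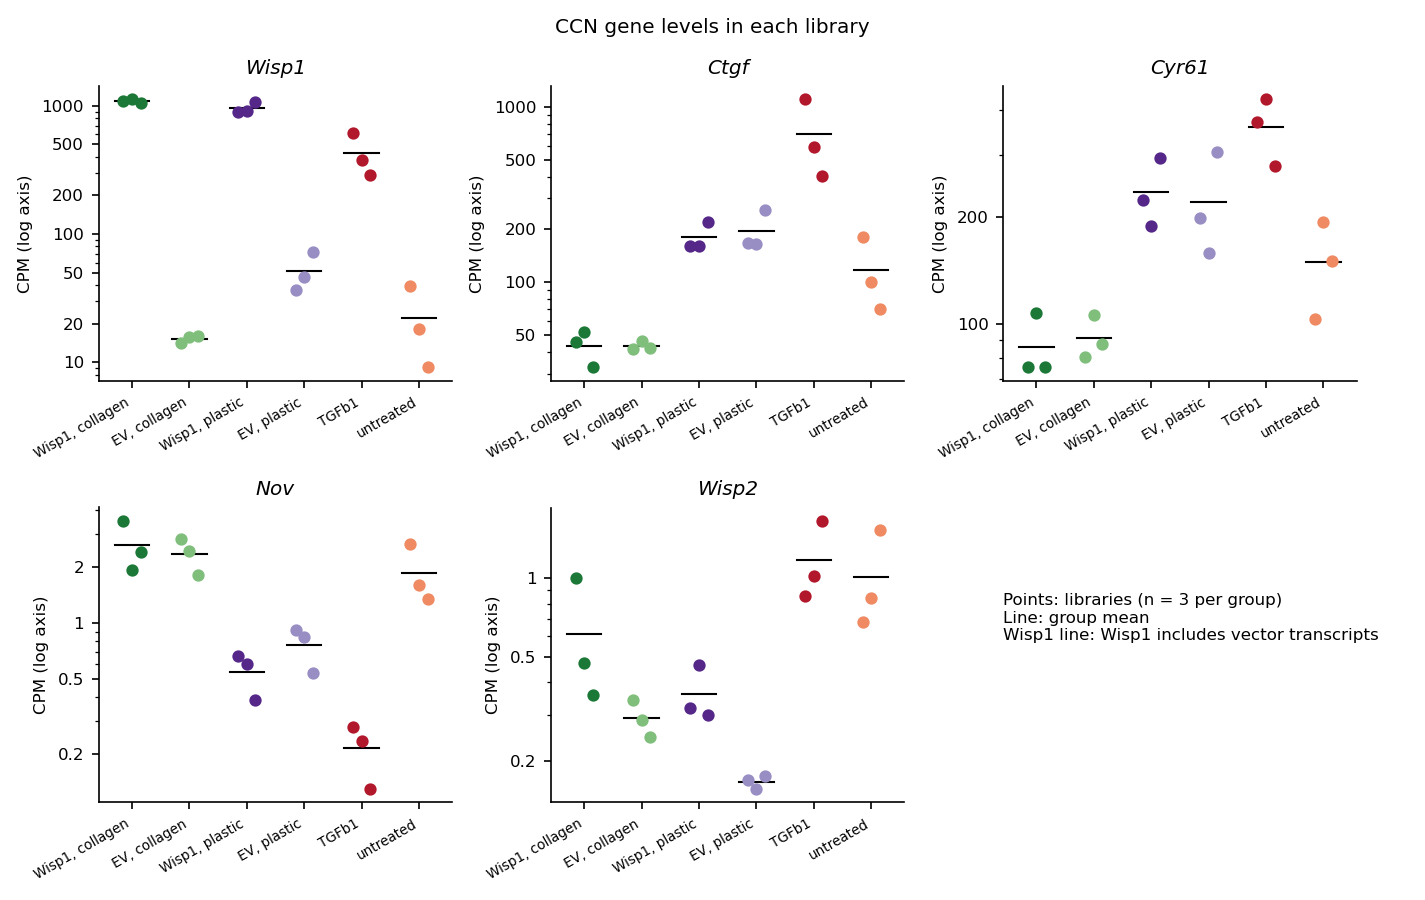
CPM of the 5 CCN genes in each library, on log axes, with 1 point per library and a line at the mean of the 3 libraries. Ctgf and Cyr61 are highest with TGFb1 and lowest on collagen, Nov is lowest with TGFb1, and Wisp1 in the Wisp1 line includes vector transcripts.

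To compare genes with each other, CPM was divided by the length of the longest annotated coding transcript (CPM per kb). On this scale the 5 genes summed to 543 ± 200 CPM per kb in TGFb1-treated cells and 126 ± 19 in untreated cells (SD, n = 3 each). The sum was 66.7 ± 7.5 CPM per kb in EV cells on collagen and 198 ± 62 on plastic. Ctgf made up 59.3, 45.3 and 45.3% of the family in the 3 TGFb1-treated libraries, against 54.6, 28.7 and 26.8% in the 3 untreated libraries. Ctgf was the largest component in each treated library, whereas Cyr61 was the largest in 2 of 3 untreated libraries and Ctgf in the other. Wisp1 made up 15.3 ± 1.1% with TGFb1 and 3.37 ± 2.2% without. In EV cells Cyr61 was the largest component, at 67.6 ± 2% on collagen and 54.6 ± 3.3% on plastic. In the Wisp1 line, with the vector transcript scaled by the length of the native one, Wisp1 was 77.8 ± 2.9% of the family on collagen and 50 ± 2.8% on plastic. Nov and Wisp2 together stayed under 2% in every library.

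**Figure D2:**
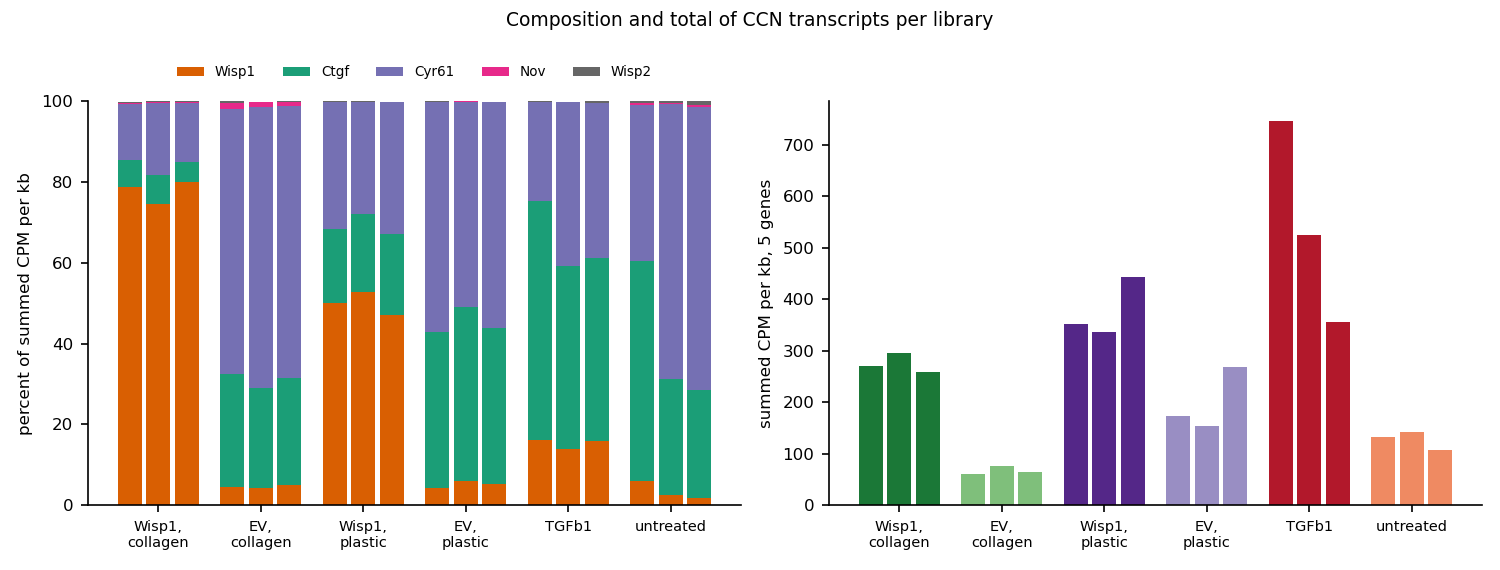
Left, percent of the summed CPM per kb contributed by each CCN gene in each library. Right, the sum itself in CPM per kb. The 3 TGFb1-treated libraries reach 356 to 747 CPM per kb, above the 106 to 141 of untreated libraries, and EV cells on collagen lie between 60.7 and 75.1.

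The first comparison asked which CCN genes responded to TGFb1 in parental cells. Wisp1, Ctgf and Cyr61 rose and Nov fell, so 4 of 5 members were called (adjusted p under 0.05), where 11.1% of 14874 tested genes were called, 6.14% higher and 4.92% lower. Wisp2 was not called. Of the 3 that rose, the fold change was largest in Wisp1 and smallest in Cyr61.

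Wisp1 stood at 611, 376 and 288 CPM in TGFb1-treated libraries, against 39.7, 18.1 and 9.16 CPM in untreated libraries. Every treated library was above every untreated one, and the library with the highest level in each group carried the same replicate number, as did the lowest. The log2 change was 4.23 (95% interval 2.78 to 5.68, edgeR adjusted p = 0.0096). Ctgf, a fibrosis-associated member, stood at 1100, 593 and 402 CPM in treated libraries, against 180, 101 and 70.4 CPM in untreated libraries. The groups did not overlap, though the spread within each was wide (log2 change 2.56, interval 1.4 to 3.72, adjusted p = 0.022).

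Cyr61, an immediate early gene that promotes adhesion and angiogenesis, stood at 371, 429 and 278 CPM in treated libraries, against 103, 194 and 150 CPM in untreated libraries. The treated libraries were all higher (log2 change 1.25, interval 0.64 to 1.87, adjusted p = 0.028). Nov stood at 0.277, 0.234 and 0.13 CPM in treated libraries, against 2.64, 1.6 and 1.34 CPM in untreated libraries. These values rest on 9 to 23 counts per treated library and 112 to 221 per untreated library, and the groups did not overlap (log2 change −3.12, interval −4.17 to −2.08, adjusted p = 0.009). Wisp2 stood at 0.854, 1.02 and 1.66 CPM with TGFb1 and 0.68, 0.838 and 1.53 CPM without. These ranges overlapped, and the interval of the log2 change, −0.81 to 1.2, holds changes in both directions (adjusted p = 0.84).

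Treated and untreated libraries share codes in their titles, whose meaning is not stated, and the size of the Ctgf change was nearly the same in each such pair. Ctgf was 6.14, 5.87 and 5.71 times higher with TGFb1 in the 3 pairs. Wisp1 was 15.4, 20.8 and 31.4 times higher and Cyr61 3.61, 2.21 and 1.85 times higher, so these folds varied more between pairs. Nov was 9.53, 6.82 and 10.3 times lower. With the pairs as a block, the log2 change of Ctgf was 2.55 (interval 2.43 to 2.66, adjusted p = 3.9e-06), the smallest p of all genes tested. In that fit 44.9% of genes were called, and Wisp1 (adjusted p = 3.9e-05), Nov (8.5e-05) and Cyr61 (0.0018) were called again, but not Wisp2 (0.33).

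**Figure D3:**
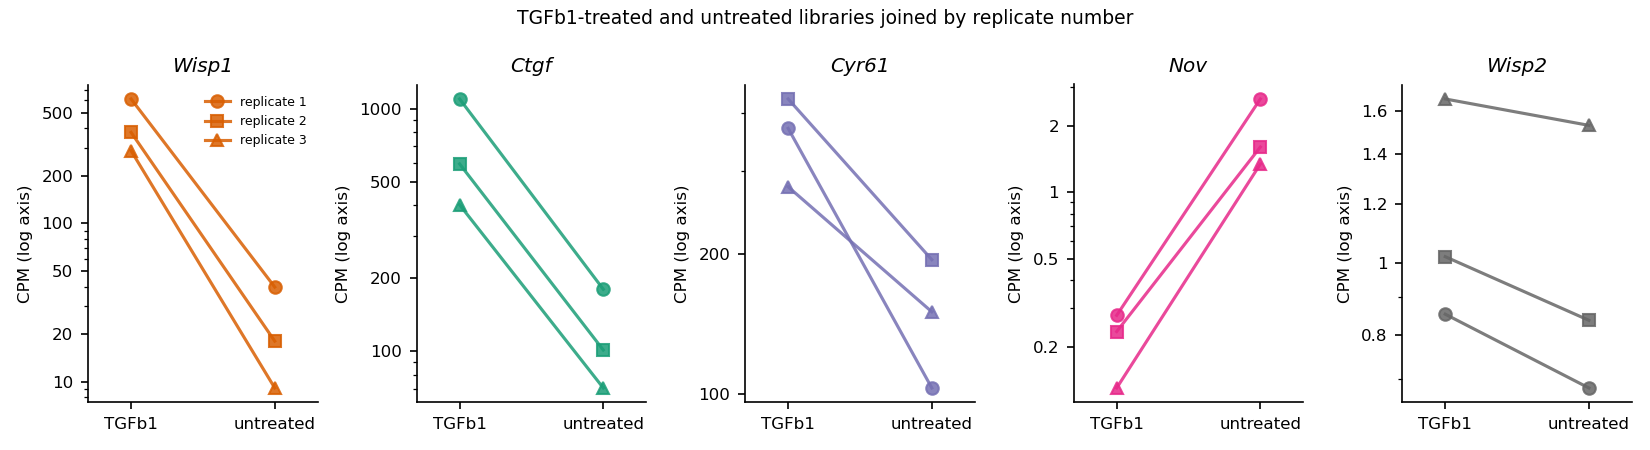
CPM on log axes of each CCN gene in TGFb1-treated (left) and untreated (right) libraries, with lines joining libraries of the same replicate number. The 3 Ctgf lines are close to parallel (6.14, 5.87 and 5.71-fold), whereas 2 of the 3 Cyr61 lines cross.

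Without the block, the calls depended on single libraries. Wisp1 lost its call when untreated replicate 2 was left out (adjusted p = 0.063), and Nov when TGFb1 replicate 2 was left out (0.052). Ctgf lost it without TGFb1 replicate 2 (0.072), untreated replicate 2 (0.11) or untreated replicate 3 (0.054). Cyr61 kept it only when TGFb1 replicate 3 was the library left out, and had an adjusted p between 0.051 and 0.11 otherwise. Leaving out either TGFb1 replicate 2 or untreated replicate 2 therefore left 1 member called. The direction of these 4 genes was the same in each of these fits.

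Genes that act with the CCN family were read from the same fit. Of 18 receptors and binding partners 15 were tested, and 9 rose and 1 fell with TGFb1 (median log2 change 0.53, against −0.007 over all genes tested, of which 6.14% rose and 4.92% fell). With the pairs as a block 9 rose and 4 fell, where 22.4% of all genes rose and 22.5% fell. Fibronectin (Fn1), a matrix protein that binds Ctgf, had the smallest p of those that rose, at 5890 ± 810 CPM with TGFb1 and 2640 ± 270 CPM without (adjusted p = 0.0057). Sdc4, a heparan sulphate proteoglycan of the cell surface, fell to 153 ± 47 CPM with TGFb1, against 341 ± 28 CPM without (adjusted p = 0.022). Outside the naming rule and chosen after their values were seen, the integrin genes Itgb3 (log2 change 2.84), Itga2 (1.62) and Itga5 (0.97) rose too. The integrin gene Itga6 went the other way without being called (log2 change −1.26, edgeR adjusted p = 0.056). Itgb3, Itga2, Itga5 and Fn1 kept their calls whichever library was left out. Sdc4 did not without TGFb1 replicate 2 (adjusted p = 0.1), untreated replicate 1 (0.064) or untreated replicate 2 (0.089), and the count of called genes in the list fell to as few as 4.

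Of 18 YAP and TAZ targets outside the CCN family, 7 rose and none fell with TGFb1 (median log2 change 0.41). Of all genes tested 6.14% rose and 4.92% fell. Gadd45b, a stress-response gene, had the smallest p, at 70.1 ± 4.3 CPM with TGFb1 and 18.9 ± 2.4 CPM without (log2 change 1.87, adjusted p = 0.0014). Ankrd1, another well-known YAP target named here after its values were seen, averaged 240 ± 45 CPM with TGFb1 and 294 ± 72 CPM without. Leaving out 1 library left 5 to 7 of the list called. With the pairs as a block, 9 rose and 2 fell, where 22.4% of all genes rose and 22.5% fell.

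Of 16 regulators in the YAP, TAZ, TEAD, SRF and SMAD list, 2 rose and 2 fell. Of all genes 6.14% rose and 4.92% fell. Smad7, which inhibits TGF-beta signalling, rose (69 ± 7.8 CPM with TGFb1, 24.4 ± 5.7 CPM without, adjusted p = 0.0074), except that its adjusted p was 0.051 without untreated replicate 2. Tead2 rose (log2 change 0.66, adjusted p = 0.037), and Tead1 (−0.35, 0.034) and the signal transducer Smad3 (−0.51, 0.044) fell. Leaving out 1 library gave adjusted p of up to 0.15 for Tead1 and Tead2 and 0.17 for Smad3. Smad3 stayed called only when the library left out was untreated replicate 3, and Tead2 only when it was TGFb1 replicate 3 or untreated replicate 1. Tead1 lost its call whichever of the 6 libraries was left out, with a lowest adjusted p of 0.05. With the block, 8 of the regulators rose and 5 fell, where 22.4% of all genes rose and 22.5% fell.

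Other genes with an IGFBP module moved both ways, with 2 rising and 1 falling of 9 tested, where 11.1% of all genes were called. With the block 2 rose and 2 fell, where 22.4% of all genes rose and 22.5% fell. Igfbp4, which binds insulin-like growth factors, fell (log2 change −1.15, adjusted p = 0.0055). Igfbp7 rose (2.07, 0.031) and so did the serine protease gene Htra1 (0.45, 0.028). Without TGFb1 replicates 1 and 2 and untreated replicates 2 and 3 in turn, the adjusted p was 0.06 to 0.13 for Igfbp7 and 0.066 to 0.13 for Htra1, which also had 0.093 without untreated replicate 1.

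Of 5 tested metalloprotease genes whose products are reported to cleave CCN proteins, Mmp3 fell (log2 change −3.21, adjusted p = 0.041). Its adjusted p was 0.079 to 0.14 without TGFb1 replicate 1 or 2 or untreated replicate 1 or 2. No other gene of the list was called. Outside the naming rule, Mmp9 (1120 ± 540 CPM with TGFb1, 189 ± 110 without) and Mmp14 (395 ± 130, 172 ± 50) had higher means with TGFb1. Mmp13 (42.8 ± 39, 74.8 ± 63) and Mmp1a (0.6 ± 0.56, 5.39 ± 2.9) had lower ones. With the pairs as a block all 5 were called, 2 higher and 3 lower, where 44.9% of all genes were called. Among 9 tested Wnt and beta-catenin targets 1 rose and 2 fell, where 6.14% of all genes rose and 4.92% fell. With the block 2 rose and 3 fell, where 22.4% of all genes rose and 22.5% fell. Apcdd1, an inhibitor of Wnt signalling, fell (log2 change −2.96, adjusted p = 0.0031). Ccnd1 fell as well (−1.45, 0.026) and Lef1 rose (1.4, 0.026). Ccnd1 lost its call without TGFb1 replicate 2 (0.11), untreated replicate 1 (0.068) or untreated replicate 2 (0.1), and Lef1 lost it whichever of the 6 libraries was left out (0.052 to 0.094).

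Markers of other cell types moved with TGFb1 at low levels. Fibroblast markers summed to 56.4 to 71.3 CPM with TGFb1 and 35.7 to 59.3 CPM without, and of 4 tested Col1a1 (8.59 ± 6.7 CPM against 0.982 ± 0.57 CPM) and Pdgfrb (1.7 ± 0.38 CPM against 0.208 ± 0.14 CPM) rose. Leukocyte markers summed to 1.97 to 3.45 CPM with TGFb1 and 0.694 to 1.08 CPM without, with Csf1r higher (log2 change 3.82) and Ptprc lower (−1.95). Endothelial markers summed to 0.325 to 0.476 CPM with TGFb1 and 0.262 to 0.37 CPM without. Of 6 epithelial markers 1 was called, where 6.14% of all genes rose and 4.92% fell, and their median log2 change was −0.13. It was Krt14, which rose to 106 ± 35 CPM with TGFb1, against 8.72 ± 4.5 CPM without. With the pairs as a block 2 epithelial markers rose and 3 fell, where 22.4% of all genes rose and 22.5% fell. Leaving out 1 library raised the adjusted p to as much as 0.17 for Col1a1, which stayed called only without TGFb1 replicate 3. Pdgfrb lost its call without TGFb1 replicate 1, 2 or 3 or untreated replicate 1 (0.052 to 0.081). Ptprc lost it without TGFb1 replicate 1, 2 or 3 or untreated replicate 2 or 3 (0.053 to 0.084). Csf1r lost it without untreated replicate 2 alone (0.053). The part of these markers in the CCN results was not tested. Fewer cells of a type and less RNA per cell cannot be told apart in these bulk samples.

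The second question was how the CCN genes stood on collagen type I against plastic, asked once in EV cells and once in Wisp1 cells, with no library in both comparisons and none shared with the TGFb1 comparison. In EV cells Wisp1, Ctgf and Cyr61 fell and Nov rose on collagen. These 4 of 5 members were called where 36.5% of 13953 tested genes were, 19.2% higher and 17.3% lower. In Wisp1 cells Ctgf and Cyr61 fell and Nov rose, 3 of 5 members where 40.4% of genes were called, 21.3% higher and 19.1% lower. Calls were common among all genes on collagen, and the size of the change is given for each member.

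Ctgf in EV cells was at 41.9, 46.4 and 42.5 CPM on collagen, against 167, 165 and 257 CPM on plastic. Ctgf in Wisp1 cells was at 45.8, 52.1 and 32.8 CPM on collagen, against 161, 161 and 220 CPM on plastic. Neither line overlapped between substrates, and replicate 3 was highest on plastic in both. The log2 change was −2.14 (interval −2.63 to −1.65, adjusted p = 7e-05) in EV and −2.02 (−2.51 to −1.53, adjusted p = 8.8e-05) in Wisp1 cells.

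Cyr61 in EV cells was at 80.6, 106 and 87.5 CPM on collagen, against 199, 158 and 304 CPM on plastic. Cyr61 in Wisp1 cells was at 75.7, 107 and 75.4 CPM on collagen, against 223, 189 and 294 CPM on plastic. The substrates did not overlap, with replicate 3 again highest on plastic (log2 change −1.24, adjusted p = 0.0052 in EV, and −1.42, adjusted p = 0.0024 in Wisp1 cells).

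Nov in EV cells was at 2.8, 2.41 and 1.8 CPM on collagen, against 0.916, 0.844 and 0.541 CPM on plastic. Nov in Wisp1 cells was at 3.51, 1.93 and 2.39 CPM on collagen, against 0.662, 0.601 and 0.386 CPM on plastic. Every collagen library was above every plastic library in both lines, and replicate 3, highest for Ctgf and Cyr61 on plastic, was lowest there for Nov. The log2 change was 1.62 (interval 1.04 to 2.2, adjusted p = 0.00044) in EV and 2.34 (1.69 to 2.98, adjusted p = 5e-05) in Wisp1 cells.

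Wisp1 transcribed from the native gene can be read without the vector only in EV cells. It was at 14.1, 15.7 and 16.1 CPM on collagen, against 36.8, 46.4 and 72.1 CPM on plastic. The ranges did not overlap, and the plastic libraries were the more variable (log2 change −1.72, interval −2.17 to −1.28, adjusted p = 0.00013). In the Wisp1 line the gene was at 1090, 1120 and 1050 CPM on collagen, against 897, 908 and 1070 CPM on plastic. These ranges overlapped (log2 change 0.21, interval −0.19 to 0.61, adjusted p = 0.38), although a fit of those 6 libraries alone gave an adjusted p of 0.027, with 37.6% of genes called.

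Wisp2 was at 0.341, 0.286 and 0.247 CPM on collagen and 0.169, 0.156 and 0.174 CPM on plastic in EV cells. It was at 1, 0.473 and 0.358 CPM on collagen and 0.318, 0.465 and 0.298 CPM on plastic in Wisp1 cells. The EV libraries did not overlap and the Wisp1 libraries did, and neither change was called (log2 change 0.81, interval −0.13 to 1.75, adjusted p = 0.16 in EV, and 0.89, interval 0.12 to 1.67, adjusted p = 0.064 in Wisp1 cells). In Wisp1 cells the adjusted p was 0.048 without Wisp1 collagen replicate 2, where 35.9% of genes were called, and 0.016 without Wisp1 collagen replicate 3, where 38.5% were. Ctgf, Cyr61 and Nov kept their calls and directions in both lines under all 14 alternative settings and left-out libraries run for each comparison, as did Wisp1 in EV cells.

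Other YAP and TAZ targets moved both ways on collagen, with more lower than higher. In EV cells 8 fell and 4 rose of 17 tested (median log2 change −0.25, against 0.0011 over all genes tested). Of all genes 17.3% fell and 19.2% rose there. In Wisp1 cells 9 fell and 3 rose (median −0.25, against 0.0098), where 19.1% of all genes fell and 21.3% rose. Gadd45b had the smallest p of those that fell, at 22 ± 0.5 CPM on collagen and 62.8 ± 4.7 CPM on plastic in EV cells (log2 change −1.49, adjusted p = 3.8e-08) and with a log2 change of −1.44 in Wisp1 cells. Myof, a membrane repair gene, was the exception with the smallest p, at 1170 ± 43 CPM on collagen and 785 ± 22 CPM on plastic in EV cells (log2 change 0.61), and 0.57 in Wisp1 cells.

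Amotl2, Gadd45a, Gadd45b, Nuak2 and Tgfb2, singled out after their values were seen, rose with TGFb1 and fell on collagen in both lines. They were 71.4% of the 7 targets raised by TGFb1, and 62.5% of the 8 that fell on collagen in EV cells and 55.6% of the 9 that fell in Wisp1 cells. Of all genes raised by TGFb1, 24.7% fell on collagen in EV cells, where 17.4% of all genes fell, and 21.1% fell in Wisp1 cells, where 19.2% of all genes fell. Tgfb2, which encodes a TGF-beta ligand, was at 3.4 ± 0.36 CPM on collagen and 9.86 ± 1 CPM on plastic in EV cells (adjusted p = 1.2e-07). These 5 genes kept their calls in all 3 comparisons whichever library was left out.

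**Figure D4:**
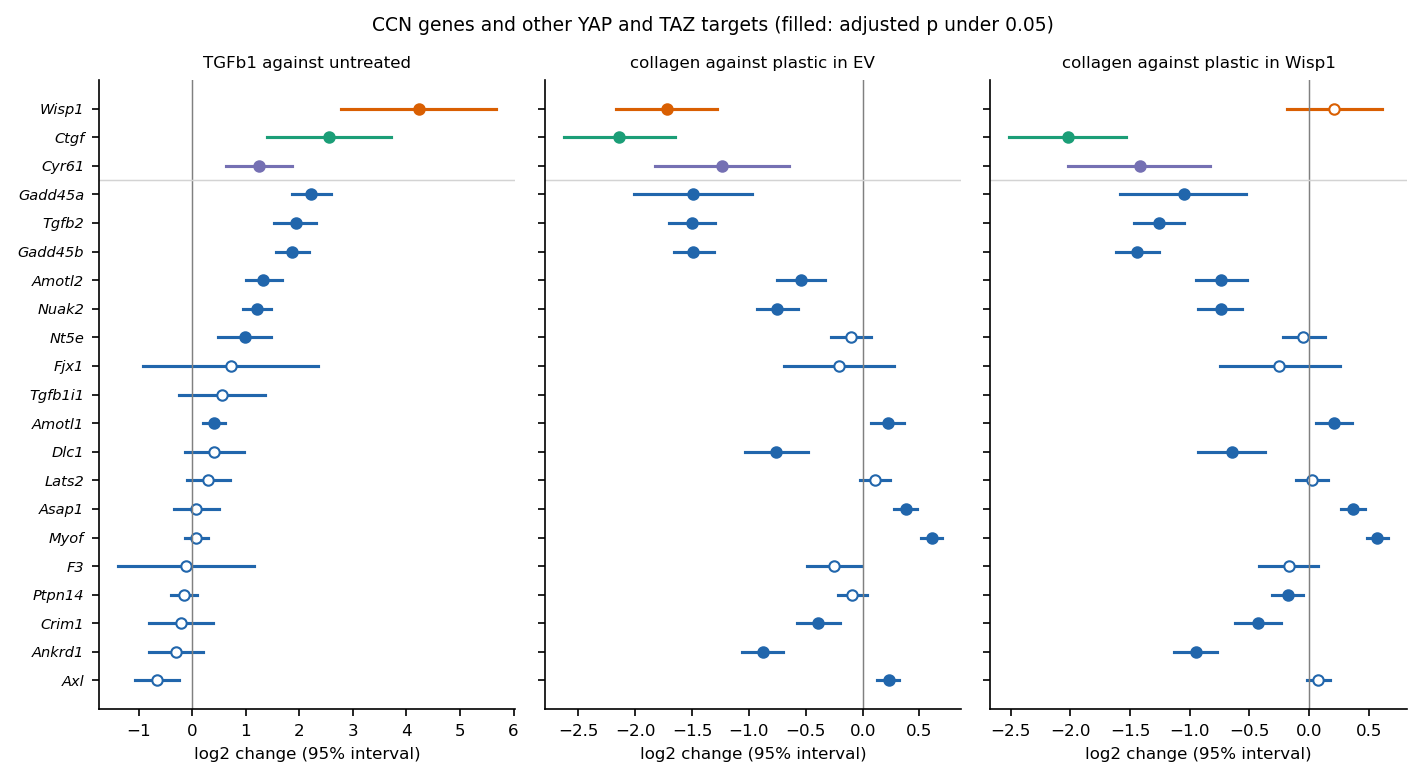
Log2 changes with 95% intervals of Wisp1, Ctgf and Cyr61 and of 18 other YAP and TAZ targets with TGFb1 (left) and on collagen in EV (middle) and Wisp1 cells (right), filled where the adjusted p was under 0.05 and empty where it was not, with separate scales and no point where a gene was not tested. Ctgf and Cyr61 rise with TGFb1 and fall on collagen, as do 5 of the other targets, while Myof rises on collagen (0.61 and 0.57) and Ankrd1 falls there without being called with TGFb1.

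Of 5 tested metalloprotease genes of the list 4 rose on collagen in each line (median log2 change 2.22 in EV and 2.28 in Wisp1 cells). Of all genes 19.2% rose in EV and 21.3% in Wisp1 cells. In EV cells Mmp14, a membrane-anchored collagenase, was at 286 ± 23 CPM on collagen and 157 ± 15 CPM on plastic. Mmp3 was at 66.4 ± 20 CPM on collagen and 14.5 ± 3 CPM on plastic. Mmp13 and Mmp1a were at 6.09 ± 1.7 and 0.513 ± 0.13 CPM on collagen, against 1.06 ± 0.14 and 0.114 ± 0.072 CPM on plastic. In a fit of all 18 libraries the adjusted p was 0.053 for Mmp13 and 0.068 for Mmp1a in EV cells. Mmp13 also lost its call in Wisp1 cells in that fit (0.05).

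Of 15 tested receptors and binding partners 6 rose and 3 fell in EV cells, where 19.2% of all genes rose and 17.3% fell. In Wisp1 cells 5 rose and 2 fell, where 21.3% of all genes rose and 19.1% fell, so the share called in that line was near the background. Itga6, an integrin subunit that Cyr61 and Ctgf bind, had the smallest p of those that rose, with a log2 change of 0.63 in EV and 0.48 in Wisp1 cells. Notch1, reported to bind Nov, had the smallest p of those that fell, at −0.31 and −0.45. In the fit of all 18 libraries the adjusted p was 0.08 for Itga6 and 0.18 for Notch1 in EV cells. In Wisp1 cells these were 0.17 and 0.051. Regulators rose and fell by at most 0.42 on the log2 scale, 5 and 3 of 16 in EV and 3 and 5 of 16 in Wisp1 cells, close to the shares of all genes called (36.5% and 40.4%). Leaving out 1 library changed these counts. In EV cells there were 3 higher and 2 lower without EV plastic replicate 1, 7 higher and 1 lower without EV plastic replicate 3, and 1 lower without EV collagen replicate 1 or 2 or EV plastic replicate 2. In Wisp1 cells 3 were lower whichever library was left out, except Wisp1 collagen replicate 3, where 4 were. Smad3 had the smallest p of those that rose in EV cells (log2 change 0.37), and Tead2 of those that fell (−0.23). The adjusted p of Tead2 there was 0.11 in the fit of all 18 libraries.

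Among other genes with an IGFBP module 2 rose and 1 fell of 6 tested in each line, where 36.5% of all genes were called in EV and 40.4% in Wisp1 cells. In EV cells Igfbp4 rose (log2 change 0.69, adjusted p = 2e-08), as did Kazald1 (0.59, 0.013), and Crim1 fell (−0.39, 0.0036). Kazald1 lost its call without EV plastic replicate 3 (0.055), which left 2 genes of the list called. Without EV plastic replicate 1, 5 were called, 2 higher and 3 lower, and without EV collagen replicate 2 lower calls numbered 2. In Wisp1 cells the log2 change was 0.65 for Igfbp4, 0.91 for Kazald1 and −0.43 for Crim1. In a fit of all 18 libraries the adjusted p in EV cells was 0.15 for Kazald1 and 0.16 for Crim1. For Crim1 in Wisp1 cells it was 0.1. Of 9 tested Wnt and beta-catenin targets 4 rose and 1 fell in EV cells, where 19.2% of all genes rose and 17.3% fell. With 1 library left out 2 to 3 in all were called. Apcdd1 (log2 change 1.51) and Notum (1.4), both secreted or membrane-bound Wnt inhibitors, rose and kept their calls whichever library was left out. Ccnd1, Rnf43 and Myc changed by at most 0.21 on the log2 scale and lost their calls without at least 3 of the 6 libraries (adjusted p up to 0.14). In Wisp1 cells Apcdd1 (1.32) and Notum (1.78) rose and Myc (−0.29) fell.

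Fibroblast markers summed to 25.2 to 30 CPM on collagen and 16.4 to 22 CPM on plastic in EV cells, with Pdgfra higher and Col1a2 lower, and Thy1 and Lum at 0. In the Wisp1 line they summed to 26.7 to 33.3 CPM on collagen and 17 to 19.2 CPM on plastic. Leukocyte markers summed to 6.09 to 11 CPM on collagen and 4.15 to 5.93 CPM on plastic in EV cells, and none was called in either line. The share of reads without an alignment was 1.84 to 2.55% on collagen and 2.56 to 3.05% on plastic in EV cells. The part of these in the CCN results was not tested.

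The third question was whether raised Wisp1 moved the other CCN genes. In the Wisp1 line Wisp1 was 18.5-fold higher than in EV cells on plastic and 70.7-fold higher on collagen. Its levels are those given for the substrates, and the Wisp1 and EV libraries did not overlap on either (log2 change 4.21, adjusted p = 3.1e-05 on plastic, and 6.14, adjusted p = 2.1e-06 on collagen). It was the only member called on either substrate. The background was 0.0143% of genes on plastic, where the other called gene was BC068157, and 0.0717% on collagen, 0.043% higher and 0.0287% lower. A fit of the 6 plastic libraries alone called 0% of genes, and the adjusted p of Wisp1 there was 0.16.

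Ctgf differed by −0.12 (interval −0.59 to 0.34) on plastic and by 0 (−0.49 to 0.48) on collagen on the log2 scale. Cyr61 differed by 0.1 (−0.48 to 0.68) on plastic and −0.09 (−0.68 to 0.5) on collagen. Nov differed by −0.53 (−1.27 to 0.22) on plastic and 0.19 (−0.31 to 0.69) on collagen. For all 3 genes the libraries of the 2 lines overlapped on both substrates, and the intervals bound the differences to under 1 on the log2 scale except for Nov on plastic. In pairs of libraries with the same number, Nov on plastic was lower in the Wisp1 line in each of 3, by 1.38, 1.4 and 1.4 times. With the block within each substrate its log2 difference there was −0.48 (interval −0.99 to 0.03, edgeR adjusted p = 0.31), which was not called.

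Wisp2 was the gene without overlap between the lines, though it was not called. On plastic it was at 0.318, 0.465 and 0.298 CPM in the Wisp1 line, against 0.169, 0.156 and 0.174 CPM in EV cells. On collagen it was at 1, 0.473 and 0.358 CPM in the Wisp1 line, against 0.341, 0.286 and 0.247 CPM in EV cells. Every Wisp1 library was above every EV library on the same substrate, on counts of 12 to 82 against 7 to 23 per library. On collagen the nearest libraries were at 0.358 and 0.341 CPM. The share of all genes without such overlap was not counted, so the separation alone shows no difference. The log2 difference was 1.09 (interval 0.11 to 2.07, adjusted p = 0.82) on plastic and 1.16 (0.43 to 1.9, adjusted p = 0.6) on collagen, so neither was called. With libraries of the same number as a block within each substrate the adjusted p was 0.11 on plastic and 0.048 on collagen, and 3.15% and 2.57% of genes were called.

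Of the receptors, regulators, YAP and TAZ targets, IGFBP-module genes, metalloproteases and Wnt targets tested, none was called between the Wisp1 and EV lines on either substrate. At an unadjusted p under 0.05 edgeR had 822 genes of all tested on plastic and 707 on collagen, and DESeq2 called 18 and 40 genes. Median log2 differences of these 6 lists ran from 0 to 0.08 on plastic and from −0.03 to 0.12 on collagen. With the block within each substrate, 0 to 2 genes of a list were called on either. In those fits 3.15% of all genes were called on plastic and 2.57% on collagen.

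**Figure D5:**
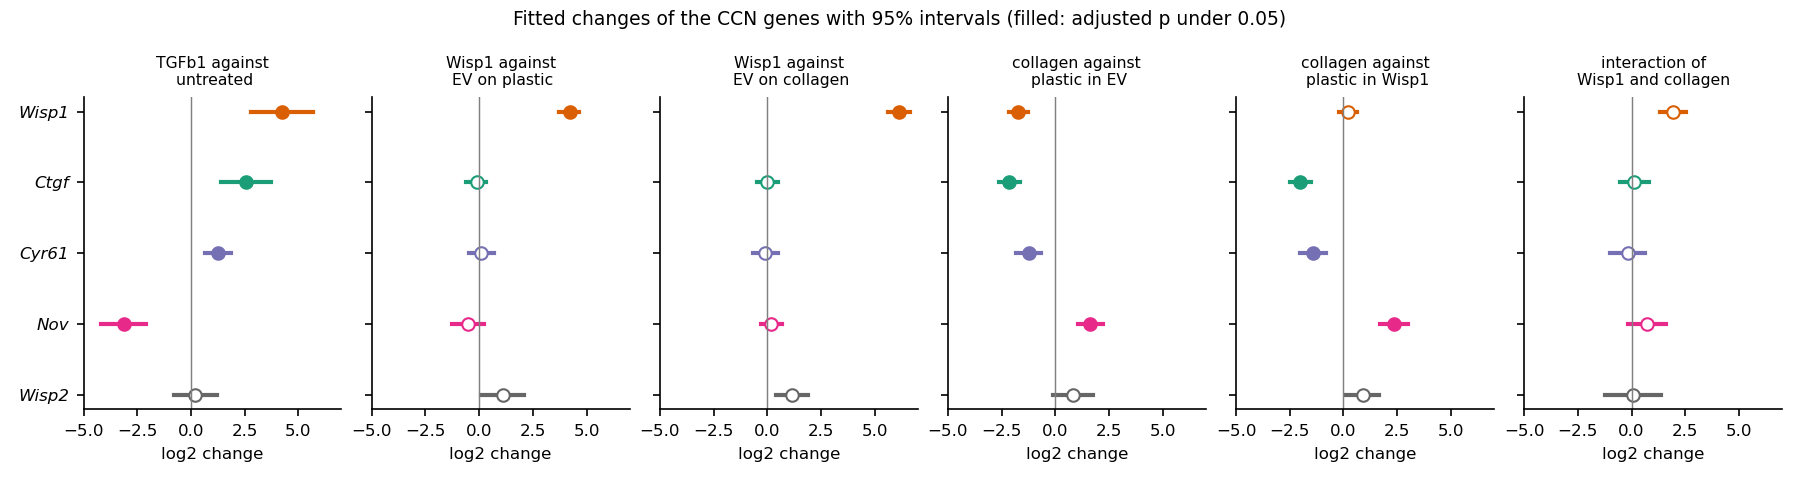
Log2 changes of the 5 CCN genes with 95% intervals in 6 comparisons, filled where the adjusted p was under 0.05. With TGFb1 the first 3 genes rise and Nov falls, on collagen Ctgf and Cyr61 fall and Nov rises in both lines, and between Wisp1 and EV cells only Wisp1 is filled.

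The interaction asked whether the effect of collagen differed between the lines. Wisp1 had the smallest p of all genes in the edgeR fit (log2 difference of differences 1.94, interval 1.34 to 2.54). It was not called (edgeR adjusted p = 0.43), and 0% of genes were. At an unadjusted p under 0.05 there were 410 genes. DESeq2 called 1 gene, 0.00717% of those tested, which was Wisp1 (adjusted p = 2.7e-06). It was also the 1 gene called by edgeR without EV plastic replicate 1 (adjusted p = 0.0056, 0.00709% of genes) or without EV plastic replicate 3 (0.00015, 0.00708%). With the block within each substrate 0.502% of genes were called and the adjusted p of Wisp1 was 0.078. Wisp1 counts in the Wisp1 line include vector transcripts, so the native gene cannot be read there. For Wisp1 the interaction therefore cannot tell whether its response to collagen differed between the lines. The intervals of the interaction were −0.55 to 0.79 for Ctgf, −1.01 to 0.64 for Cyr61, −0.18 to 1.62 for Nov and −1.24 to 1.39 for Wisp2.

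EV cells on plastic were also set against untreated parental cells, which serve as controls in the TGFb1 comparison too. The medium change, transduction, selection and sample series differ together between these groups and cannot be told apart. Nov and Wisp2 were lower in EV cells, 2 of 5 members called where 43.4% of 14476 tested genes were, 19.5% higher and 23.8% lower. Wisp2 was at 0.169, 0.156 and 0.174 CPM in EV cells, against 0.68, 0.838 and 1.53 CPM in untreated parental cells. The groups did not overlap and the call held under each alternative run (log2 change −2.63, adjusted p = 0.0028). Nov was at 0.916, 0.844 and 0.541 CPM in EV cells, against 2.64, 1.6 and 1.34 CPM in untreated cells (log2 change −1.29, adjusted p = 0.021). Its adjusted p was 0.055, 0.065 and 0.084 without EV plastic replicates 1, 2 and 3 in turn, and 0.051 without untreated replicate 2.

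Wisp1, Ctgf and Cyr61 overlapped between these groups, and none was called. The log2 change was 1.2 for Wisp1 (interval 0.02 to 2.37, adjusted p = 0.09), 0.73 for Ctgf (−0.06 to 1.52, 0.12) and 0.54 for Cyr61 (−0.14 to 1.22, 0.16). Without untreated replicate 1, the untreated library with the highest Wisp1 and Ctgf, the adjusted p was 0.0032 for Wisp1 and 0.0036 for Ctgf, where 57.9% of genes were called. A fit of all 18 libraries also called Wisp1 (0.015, with 53.9% of genes called), and DESeq2 called Ctgf (0.046, with 49.1%). Leukocyte markers summed to 4.15 to 5.93 CPM in EV cells and 0.694 to 1.08 CPM in untreated cells. Of 3 tested, 2 were called higher and 1 lower, where 19.5% of all genes were called higher and 23.8% lower. Lyz2 was at 3.92 ± 0.9 CPM in EV cells and at no more than 0.0717 CPM in untreated cells. Csf1r was higher too (0.834 ± 0.14 against 0.166 ± 0.12 CPM), and Ptprc was lower (0.341 ± 0.062 against 0.639 ± 0.057 CPM). Ptprc lost its call in 7 of 13 alternative fits. The part of these markers was not tested.

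Genes with the most similar patterns were found over the 12 libraries without a Wisp1 vector, as the root mean square (RMS) difference of centred log2(CPM + 1), among 10566 genes. Among the 3 closest to Wisp1 were 2310007B03Rik (0.24) and the annexin gene Anxa8 (0.46), and Ctgf ranked 5 (0.68). Anxa8 averaged 230 ± 120 CPM with TGFb1 and 17.3 ± 15 CPM without (SD, n = 3 each). It averaged 15.8 ± 1.6 CPM on collagen and 26.8 ± 5 CPM on plastic in EV cells. The closest to Ctgf were the serine protease gene Prss23 (0.34), the transcription factor gene Bhlhe40 (0.37) and 9930111J21Rik2 (0.47), with Wisp1 at rank 15. The closest to Cyr61 were Fgd3 (0.3), Amotl2 (0.35) and Nuak2 (0.35), the last 2 being members of the YAP and TAZ list. Ranks differed with the gene they were taken from. From Cyr61, Ctgf was at rank 6246 (0.85) and Wisp1 at rank 10394 (1.33). At the same distances, Cyr61 was at rank 57 from Ctgf and at rank 151 from Wisp1. For comparison, Wisp1 deviated from its own mean by an RMS of 1.91, Ctgf by 1.46 and Cyr61 by 0.78. These 12 libraries share their treatments and substrates, so likeness is a description over 4 groups, and Nov and Wisp2 were too low to be ranked.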

How the data were processed

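Gene counts were deposited by the authors as 1 table per library with 34591 symbols. STAR, BWA, HTSeq, CASAVA, R 3.2.4 and limma, with mouse build mm9, are named without roles in the submitters' processing notes. The libraries were poly(A)-enriched with a stranded kit, per the labels' protocols, and neither the annotation nor the strand setting of the counting is given in the sources used here. Reads outside genes (10.2 to 13.5%), ambiguous reads (1.02 to 2.08%) and unaligned reads (1.84 to 3.47%), as shares of the deposited counts of each library, stayed out of library sizes and tests. Gene totals were 37552858 to 94401699 counts.

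Raw counts were tested with edgeR 4.0.16 (quasi-likelihood F-test, filterByExpr with a minimum count of 10, TMM scaling) in R 4.3.3, with Benjamini-Hochberg adjustment over all genes tested and a threshold of 0.05. The 6 parental libraries were fitted together, as were the 12 stable-line libraries and the 6 of EV on plastic and untreated cells. Intervals are 95%. CPM uses TMM factors over 18 libraries. CPM per kb uses the longest coding transcript of GENCODE on GRCm38, a different build from that of the counts. The tests were tried on simulated data first. Alternatives were DESeq2 1.42.0, limma-voom 3.58.1, other scalings, no filter, other sample sets, replicate blocks and leaving out each library.

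Replicate numbers paired TGFb1 and untreated libraries through shared title codes, with deviations correlated at 0.79, 0.55 and 0.78. In the Wisp1 and EV lines correlations were 0.12, 0.21 and 0.22 on plastic and 0.47, 0.15 and 0.34 on collagen. Collagen and plastic libraries were not paired (−0.13 to 0.28). Replicates of each group differed by more than counting noise.

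The CCN members and the gene lists were chosen with earlier results of these data known, so no list count is independent evidence. List genes were named where they had the smallest p in a direction among called members, and all called members were named where 5 or fewer were called. Cell type markers were named outside this rule, and some that were called are not named. For EV on plastic against untreated cells no list genes other than markers were named. The 3 genes closest in pattern to a member were named, except 1 that is not reported here. Counts and CPM of antisense or overlapping genes cannot be separated without the strand setting.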

Additional observations from a re-analysis of the deposited data

How the results depend on the processing

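Of 520 alternative values for single CCN genes, 474 kept their direction and side of the threshold, 15 lost a call, 11 gained one and 20 changed sign, none of these 20 being called. The cause of these changes was not tested. The TGFb1 comparison had 1645 genes called, 2910 with DESeq2, 6672 with the replicate block, 4865 with all 18 libraries in one fit, and 380 to 1430 (1 to 4 members) with 1 library left out. Wisp1 against EV on plastic had 2 genes called, 18 with DESeq2, 440 with the replicate block within each substrate, 1 with all 18 libraries, 0 (0 members) with only the 6 libraries compared, and 1 to 2 (1 member) with 1 left out. On collagen it had 10, against 32 with no filter, 40 with DESeq2, 18 with the block over all 4 groups, 358 (2 members) with the block within each substrate, 4 with all 18 libraries, 2 with only the 6 compared, and 5 to 11 with 1 left out. Collagen against plastic had 5095 genes called in EV and 5641 in Wisp1 cells, and 1629 and 2071 with all 18 libraries. The block within each substrate could not be fitted there, because each block lies within 1 substrate. The interaction had 0 genes called, 1 (1 member) with DESeq2, 70 with the block within each substrate, and 0 to 1 (0 to 1 members) with 1 library left out. EV on plastic against untreated had 6276 genes called and 3711 to 8557 (1 to 4 members, against 2) with 1 library left out.

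Sign changes were of uncalled genes. With TGFb1 the sign of Wisp2 changed without TGFb1 replicate 3 or untreated replicate 1 (adjusted p 0.45 to 0.97 over left-out libraries). Between the Wisp1 and EV lines, adjusted p over left-out libraries ran on plastic from 0.85 to 1 for Ctgf and 0.6 to 1 for Cyr61, and on collagen from 0.83 to 1 for Ctgf, 0.9 to 1 for Cyr61 and 0.73 to 1 for Nov, with Ctgf at 1 under the block over all 4 groups. In the interaction they ran from 0.81 to 1 for Ctgf, 0.76 to 1 for Cyr61 and 0.88 to 1 for Wisp2, and Wisp2 had 1 with DESeq2, 0.99 with the block over all 4 groups and 0.94 with the block within each substrate. Counts of Nov and Wisp2 (7 to 287 per library) limit what could be detected for them.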
